A study of Mus musculus with 2 samples.

Results

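The genes described here make, fold, inspect and discard the proteins that enter the endoplasmic reticulum, and sense the load placed on that compartment. They are 32 of the 43346 mouse genes in the deposited tables, chosen by name and matched to the tables by gene identifier. They fall into 13 chaperones and prolyl isomerases, 6 disulfide isomerases and oxidases, 7 degradation genes, and 6 stress sensors and transcription factors. Total RNA was sequenced from the lungs of newborn mice of strain B6NCrl on postnatal day 0, with 1 library from the 2 lungs of each of 2 pups. Pup 1 and pup 3 carry the same pregnancy number, no treatment or genotype is named beyond the strain, and their sex is unrecorded. The libraries form a single group, so levels can be described but no condition can be compared. Because 1 donor identifier is shared by the pair of libraries, every SD below rests on the pup numbers alone and may in part be technical.

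Proteins bound for the cell surface, for secretion or for storage in vesicles are threaded into the endoplasmic reticulum, where chaperones hold them while they fold, isomerases pair their cysteines, and misfolded chains are sent back to the cytosol for destruction. When unfolded chains accumulate, the sensors Ire1 (gene Ern1), Perk (gene Eif2ak3) and Atf6 raise chaperone and degradation genes and slow translation, a program called the unfolded protein response. The newborn lung makes surfactant proteins in alveolar type 2 cells and secretory proteins in club cells, and its fibroblasts make collagen, all of which pass through this compartment.

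Expected counts over genes, which are estimated counts, summed to 42189536 in pup 1 and 37026165 in pup 3. A count of 0 would allow a level of up to 0.0711 CPM in pup 1 and 0.0810 CPM in pup 3 (3 counts of the total, counting error only). Mitochondrial transcripts held 2.08% and 1.97% of the counts. Lung markers were abundant in both pups: 8 of 8 alveolar type 2 markers were detected, with a summed level of 86045 TPM in pup 1 and 77273 TPM in pup 3, and club cell markers summed to 28585 and 30203 TPM. TPM, which scales each library to a fixed total after division by length, is a level that can be compared between genes. Markers of other secretory cells were low: plasma cell markers summed to 18.4 TPM in pup 1 and 32.9 TPM in pup 3, pancreatic acinar markers to 20.5 and 19.3 TPM, and liver markers to 6.60 and 4.42 TPM. The summed mucous gland markers were at 7.23 and 9.04 TPM. Milk protein genes, a list chosen after the data were seen, were higher in pup 3, at 1.17 TPM in pup 1 and 128 TPM in pup 3.

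One feature shared by some of the genes can be read directly from the DNA before their start sites. The endoplasmic reticulum stress element is a bipartite motif, CCAAT and CCACG separated by 9 free bases (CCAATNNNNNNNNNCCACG), known as a binding site for Atf6 together with the CCAAT factor NF-Y. RefSeq promoter sequences on assembly GRCm38.p6, which run from 250 bases before to 50 bases after the start, were found for 28 of the 32 genes. On either strand, 10 of these 28 genes (35.7%) held the element, against 37 of all 27025 genes with a promoter in the table (0.137%). The shorter box CCACG, which is part of the element, was in 24 of the 28 (85.7%) and in 35.5% of all genes there. A gene with several promoters was counted once, as holding a motif if any of them did. The genes were chosen by name for folding and stress in this compartment, and the element is known from that response. These shares are therefore a description and not a test. The 11 elements are shown because they are a sequence that 10 of the 28 genes share. The outer ends of the element are in capitals with 5 bases on each side, written along the strand of the gene, so that an element on the opposite strand reads CGTGG first and ATTGG second.
Hspa5 (chr2:34772020-34772048, plus strand): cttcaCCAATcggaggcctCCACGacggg
Hsp90b1, distal (chr10:86705633-86705661, minus strand): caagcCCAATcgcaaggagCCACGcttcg
Hsp90b1, proximal (chr10:86705528-86705556, minus strand): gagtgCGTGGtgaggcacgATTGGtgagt
Calr (chr8:84847070-84847098, minus strand): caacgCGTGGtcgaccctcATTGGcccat
Canx (chr11:50325795-50325823, minus strand): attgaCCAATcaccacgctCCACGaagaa
Dnajc3 (chr14:118937822-118937850, plus strand): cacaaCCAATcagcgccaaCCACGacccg
Creld2 (chr15:88819515-88819543, plus strand): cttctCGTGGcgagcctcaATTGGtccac
Pdia6 (chr12:17266486-17266514, plus strand): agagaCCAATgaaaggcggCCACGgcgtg
Ero1lb (chr13:12565677-12565705, plus strand): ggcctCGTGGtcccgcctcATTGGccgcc
Syvn1 (chr19:6046527-6046555, plus strand): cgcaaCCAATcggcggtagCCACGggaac
Derl3 (chr10:75893237-75893265, plus strand): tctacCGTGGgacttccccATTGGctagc

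All 11 elements lay upstream of the start. The first base of the element was 44 bases upstream in Syvn1, which was the nearest, and 65 in Hspa5, while the distal element of Hsp90b1 began 212 bases upstream. Hsp90b1 was the gene with 2 elements, which point in opposite directions. Elements were found in 5 chaperone or lectin genes besides Hspa5, in Pdia6 and Ero1lb among the disulfide genes, and in Syvn1 and Derl3 among the degradation genes. A match of letters is a description and not evidence of binding.

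**Figure D1:**
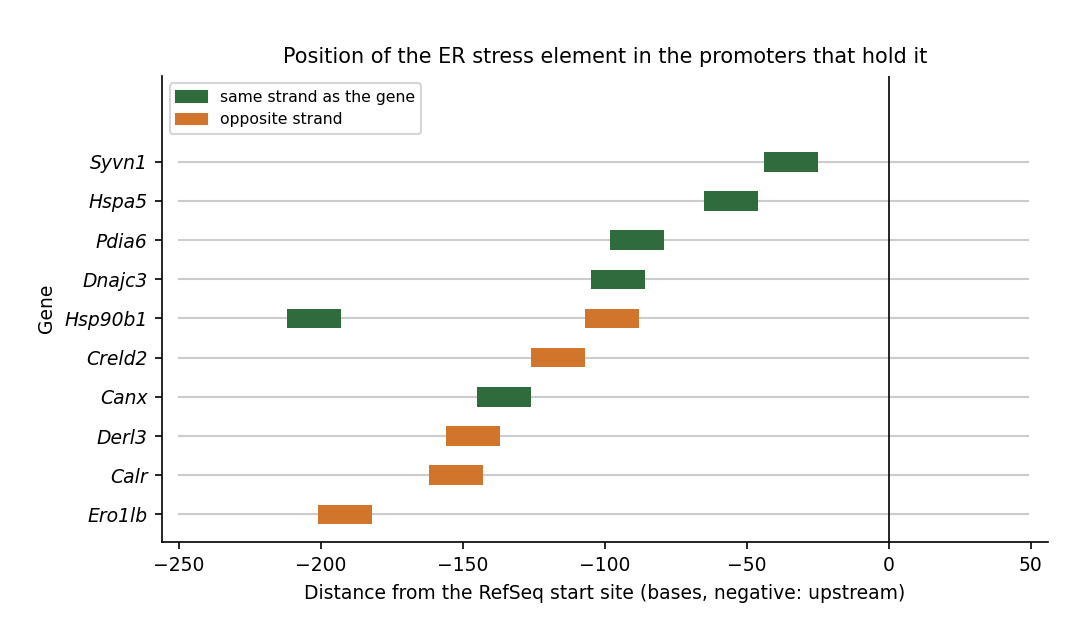
Position of each endoplasmic reticulum stress element (bars) relative to the RefSeq start site in bases, for the 10 genes whose promoter holds it; green bars lie on the strand of the gene and orange bars on the opposite strand. Every bar lies upstream of the start, from the distal element of Hsp90b1 at 212 bases to that of Syvn1 at 44.

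Many of the compartment's genes were expressed at high levels in the newborn lung. Of the 32 genes, 31 were detected at TPM 1 or more in both pups, where 14343 of all 43346 genes were. Their median was 68.2 TPM and 11 averaged 100 TPM or more, against a median of 15.7 TPM over the 12942 protein-coding genes detected. Hyou1, Ero1l, Ero1lb, Syvn1, Derl3, Edem1, Ern1, Eif2ak3 and Atf6 averaged below 15.7 TPM. The summed level of the 32 genes was 3904 TPM in pup 1 and 4329 TPM in pup 3 (4116 ± 301, SD, n = 2), or 0.412% of all TPM. Chaperones and prolyl isomerases held 52.7% of that sum, the disulfide genes 29.0%, the degradation genes 9.80% and the sensors and transcription factors 8.42%. In a whole organ, fewer cells of a type and less RNA per cell cannot be told apart, and this holds for every level below.

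**Figure D2:**
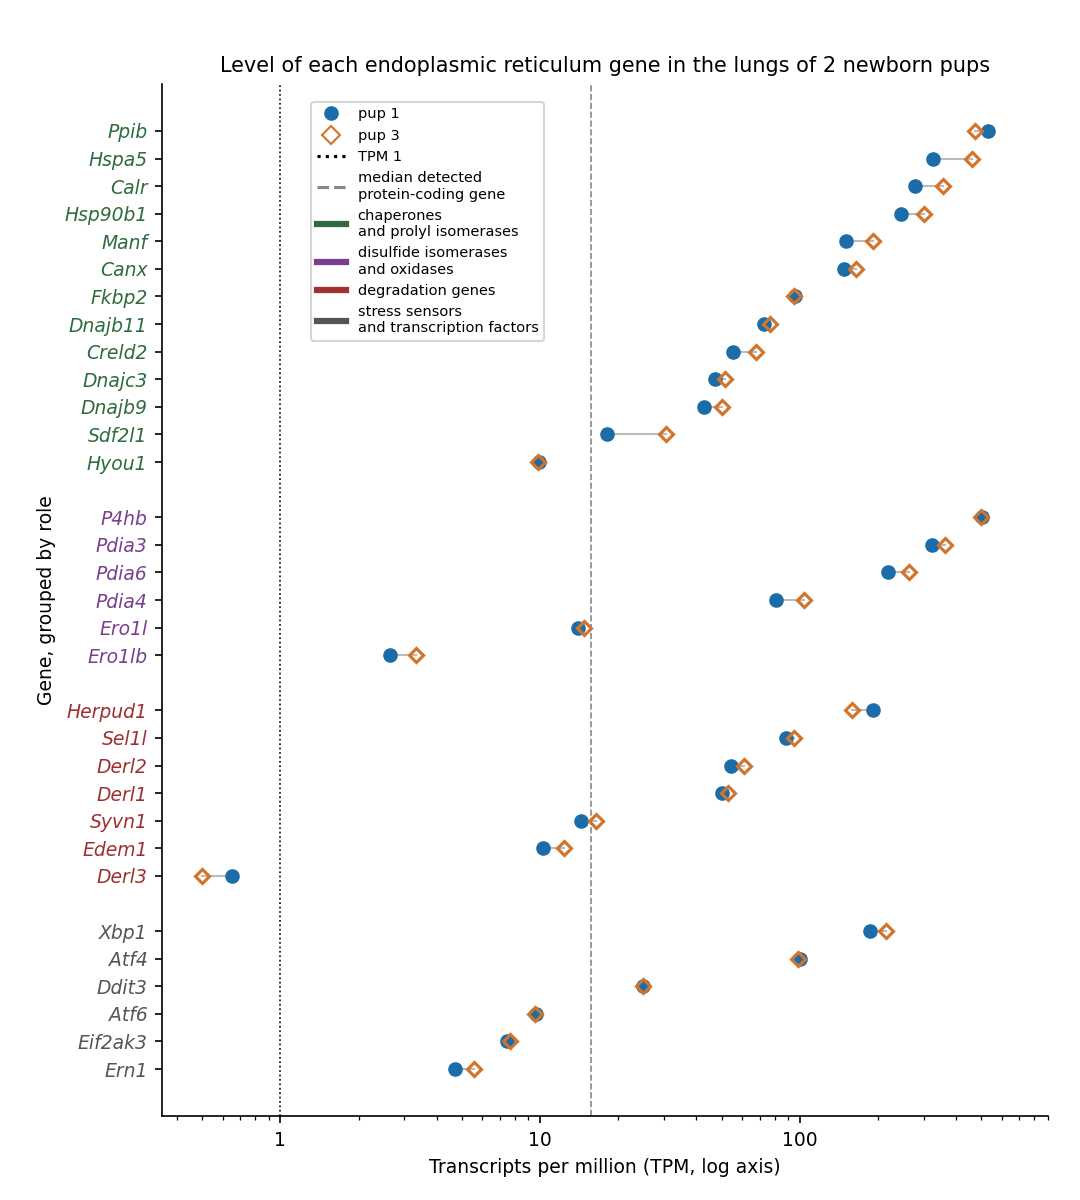
Level of each of the 32 genes in TPM (log axis) in pup 1 (filled circles) and pup 3 (open diamonds), ordered by mean level within each role; the dotted line marks TPM 1 and the dashed line the median detected protein-coding gene, 15.7 TPM. Derl3 is the one gene left of the dotted line in both pups, and Ppib, P4hb and Hspa5 lie farthest to the right.

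The chaperones and prolyl isomerases summed to 2017 TPM in pup 1 and 2325 TPM in pup 3 (2171 ± 218, SD, n = 2). Ppib, a prolyl isomerase known for its action on collagen chains, stood at 529 TPM in pup 1 and 472 TPM in pup 3 (500.4 ± 40.4, SD, n = 2), which placed it above 98.3% of detected protein-coding genes. Hspa5 (BiP, chr2:34771970-34777547, mm10), the main Hsp70-type chaperone of the compartment, stood at 325 TPM in pup 1 and 459.7 TPM in pup 3 (392 ± 95.4). Its SD was the largest of all 32 genes, and its higher value was in pup 3. The lectin chaperone Calr, which holds glycoproteins by their sugar chains, was at 278 and 356 TPM (317 ± 54.98), and its membrane-bound relative Canx at 147 and 164 TPM (156 ± 11.8). Hsp90b1, the Hsp90-type chaperone of the compartment, was at 245 and 300.1 TPM (273 ± 38.9).

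The cofactors of Hspa5 were expressed below it and spanned a wide range. The J-domain proteins, which direct Hspa5 to its clients and start its ATP cycle, were at 72.9 and 76.9 TPM for Dnajb11, 47.4 and 51.4 TPM for Dnajc3, and 42.9 and 50.1 TPM for Dnajb9 in pups 1 and 3. Hspa5 stood at 1.99 times the sum of these J-domain genes in pup 1 and 2.58 times in pup 3. Hyou1, which exchanges nucleotide on Hspa5, was the lowest chaperone at 9.88 and 9.82 TPM, so that Hspa5 was 32.9 and 46.8 times higher. Sdf2l1, a partner of Dnajb11, was at 18.2 TPM in pup 1 and 30.6 TPM in pup 3. Manf, a secreted protein that binds Hspa5, was at 151 and 192 TPM, and Creld2, a secreted protein induced by stress of the compartment, at 55.2 and 67.7 TPM. Fkbp2, a prolyl isomerase of the FK506-binding family, was nearly equal in the pups, at 96.1 and 95.4 TPM.

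Disulfide isomerases and oxidases summed to 1143 TPM in pup 1 and 1246 TPM in pup 3 (1195 ± 72.6, SD, n = 2), and 41.9% of that came from P4hb. P4hb, protein disulfide isomerase and also a subunit of the enzyme that hydroxylates collagen prolines, was at 503 TPM in pup 1 and 498 TPM in pup 3 (501 ± 4.00). Its level and that of Ppib lay within the SD of each other, and these genes were the highest of the 32. Pdia3, the isomerase that works with Calr and Canx, was at 324 and 363 TPM, Pdia6 at 219 and 264 TPM, and Pdia4 at 80.8 and 103 TPM. The oxidases that return isomerases to their active state were far lower: Ero1l was at 13.99 and 14.7 TPM, and Ero1lb at 2.64 and 3.33 TPM. The summed level of the isomerases was 67.8 times that of the oxidases in pup 1 and 68.1 times in pup 3.

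The degradation genes summed to 410.1 TPM in pup 1 and 397 TPM in pup 3 (403 ± 9.49, SD, n = 2). Herpud1, a membrane protein of the Hrd1 ubiquitin ligase complex, gave 43.4% of that sum, with 192 TPM in pup 1 and 158 TPM in pup 3 (175 ± 23.4). Syvn1, the Hrd1 ligase itself, was at 14.4 and 16.4 TPM, and its adaptor Sel1l at 88.7 and 95.1 TPM, 6.18 and 5.80 times the level. Transcript models not annotated as protein-coding held a mean of 61.1% of the abundance of Sel1l and 4.91% of that of Syvn1. The ratio is therefore not one of coding transcripts. Derl1 and Derl2, membrane proteins through which misfolded chains pass to the cytosol, were at 50.1 and 52.9 TPM and at 54.4 and 61.0 TPM. Edem1, which hands misfolded glycoproteins to degradation, was at 10.3 and 12.3 TPM. Derl3 was under the detection level, with 0.65 TPM (26 counts) in pup 1 and 0.50 TPM (17 counts) in pup 3, although its promoter holds a stress element.

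Sensors were expressed at lower levels than the transcription factors downstream of them. Ern1 was at 4.71 TPM in pup 1 and 5.55 TPM in pup 3, Eif2ak3 at 7.48 and 7.66 TPM, and Atf6 at 9.66 and 9.52 TPM, each below the median detected protein-coding gene. Xbp1, the transcription factor whose mRNA Ire1 splices, was at 186 and 214 TPM (200.0 ± 20.1, SD, n = 2), 39.4 and 38.6 times the level of Ern1, and gave 57.7% of the list's sum. Atf4, the factor translated when Perk is active, was at 100.4 and 98.8 TPM. Ddit3 (CHOP), a target of Atf4 tied to cell death, was at 24.87 TPM in pup 1 and 24.95 TPM in pup 3, and the ratio of Atf4 to Ddit3 was 4.04 and 3.96. The list as a whole summed to 333 and 361 TPM (347 ± 19.6).

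The level of Xbp1 does not say how much of its mRNA had been spliced. Ire1 removes 26 bases from it without the spliceosome, which shifts the reading frame toward the active factor. A segment of 26 bases whose removal gives the spliced sequence was found at chr11:5524282-5524307 (mm10, plus strand). It lies in exon 4 of the 5 exons of model Xbp1-201, from base 818 of its 2129 bases. The same bases, cag, stand before the segment and at its end. A segment that starts with the earlier cag therefore leaves the same spliced mRNA, and which placement Ire1 cuts out was not determined. The segment is shown in capitals with 14 bases on each side, since it overlaps the sequence the response acts on.
Xbp1: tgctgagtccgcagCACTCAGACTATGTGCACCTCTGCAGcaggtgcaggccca
Of the 4 Xbp1 models in the tables, 3 hold the segment within an exon, and 0 have an exon edge at its exact bounds. A junction at the earlier placement was not looked for in the remaining model. Whether the spliced mRNA has a row of its own was therefore not settled. Xbp1-201 held 91.9% of the gene's abundance in pup 1 and 91.2% in pup 3.

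The pups were then set against each other, 1 library against 1 library, as the ratio of TMM-scaled expected counts of pup 1 over pup 3. With no replicate of either pup no p-value is given, and the 95% intervals are exact conditional binomial intervals that cover counting error only. Of the 31 genes that reached 50 counts in the sum of the libraries, 0 differed by 2-fold or more with an interval that left out 1, where 1.40% of all 15790 genes tested did. With a 1.5-fold limit, 1 gene did, Sdf2l1, which was higher in pup 3, against 5.06% of all genes tested (2.78% higher in pup 3 and 2.28% higher in pup 1). The median log2 ratio of the 31 genes was -0.03, against 0.01 over all genes tested, with 17 genes below 0 and 14 above.

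Under TMM, smaller differences leaned to pup 3 among the 31 genes, through the chaperone and disulfide lists. The interval left out 1 with a higher value in pup 3 for 14 of the 31 genes (45.2%), where 21.6% of all genes tested did, and with a higher value in pup 1 for 5 (16.1%), where 24.6% did. Intervals narrow with depth, so the 18 genes with at least 5000 counts were also read against the 3501 such genes in all. Among them 9 were higher in pup 3 against 28.0%, and 4 were higher in pup 1 against 44.5%. The central 68% of those 3501 genes ran from -0.13 to 0.18, and of the 18 genes 6 lay below that range and 2 above it.

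The chaperones had a median log2 ratio of -0.14, with 9 of 13 below 0, and the disulfide genes one of -0.14, with 4 of 6 below 0. Sdf2l1 had 591 counts in pup 1 and 847 in pup 3, a log2 ratio of -0.67 (95% interval -0.82 to -0.51), or 1.59-fold higher in pup 3. Hspa5 had 21874 and 26440 counts, a log2 ratio of -0.42 (-0.45 to -0.40), or 1.34-fold higher in pup 3. Next came Pdia4 at -0.27, Ero1lb at -0.25, Manf at -0.25, Calr at -0.24, Hsp90b1 at -0.22, Creld2 at -0.21, Pdia6 at -0.17, Dnajb9 at -0.14 and Pdia3 at -0.10, each with an interval below 0. Dnajb11, Dnajc3, Hyou1, Fkbp2 and Ero1l had intervals that held 0. Ppib went the other way, at 0.25 (0.21 to 0.29), and P4hb was at 0.07.

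The degradation genes had a median of 0.01 and the sensors and transcription factors one of 0.09. Herpud1 had 10347 counts in pup 1 and 7261 in pup 3, a log2 ratio of 0.36 (0.32 to 0.41), or 1.29-fold higher in pup 1. Edem1, at -0.18, was the degradation gene with an interval below 0. Xbp1 was at -0.11 (-0.15 to -0.08), while Atf4 was at 0.11 and Atf6 at 0.10, both with intervals above 0. In 7 of the 31 genes (Dnajb11, Ero1l, Syvn1, Sel1l, Derl1, Ern1 and Ddit3) scaled counts were higher in pup 1 and TPM in pup 3, with every count interval holding 0. The TPM scale has an offset of its own, a median log2 ratio of -0.07 over all genes tested. The effective length assigned to Ern1 was 4395 bases in pup 1 and 3722 in pup 3, with the short model Ern1-202 at 9.20 and 30.2 counts.

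Scaling sets where 0 lies. By the spike-in RNAs, which had only 317 counts in pup 1 and 316 in pup 3, the median over all genes tested moved to 0.15. That of the chaperones moved to 0.0037 and that of the disulfide genes to 0.0063, so that the sign of both list medians flipped. Sdf2l1 at -0.52 no longer reached 1.5-fold. The counting error of the spike-in totals themselves is left out of these medians and of the intervals. The intervals that left out 1 then numbered 6 higher in pup 3 and 19 higher in pup 1, where 7.72% and 48.3% of all genes tested did. Such a scaling adds the same amount to every log2 ratio, so distances from the median of all genes cannot change with it: the chaperones lay 0.15 below that median and the disulfide genes 0.14 below. On the log2(TPM + 1) scale the distances were -0.16 and -0.15. TPM is made from the same counts divided by effective length, so this scale is no independent check.

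**Figure D3:**
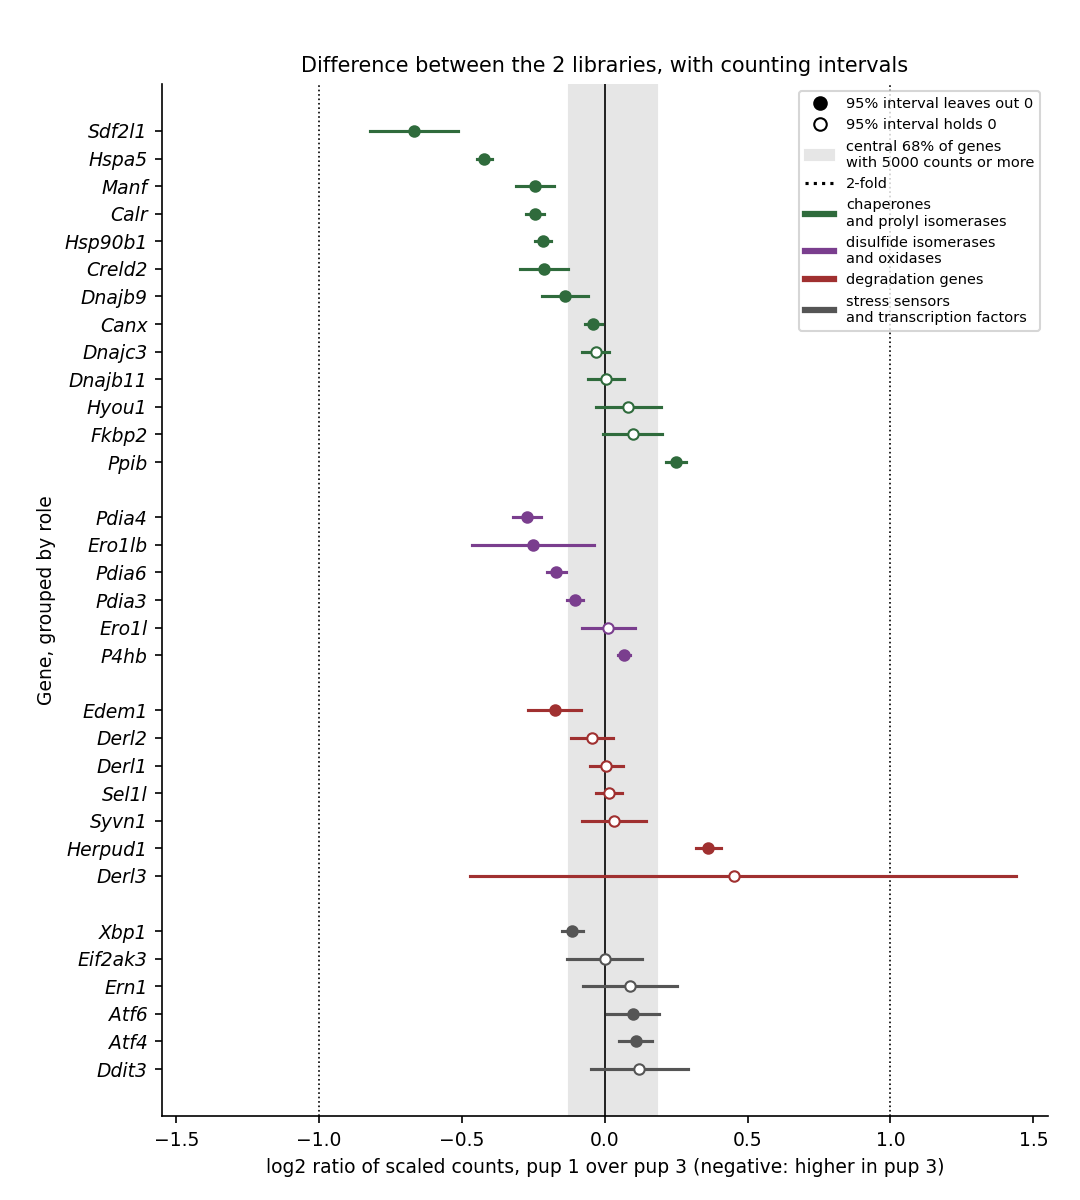
Log2 ratio of TMM-scaled counts, pup 1 over pup 3, for each of the 32 genes with its 95% counting interval; filled points have an interval that leaves out 0, the grey band is the central 68% of the 3501 genes with at least 5000 counts, and dotted lines mark 2-fold. Sdf2l1 (-0.67) and Hspa5 (-0.42) lie farthest left among the chaperones, Herpud1 (0.36) lies right of the band, and Derl3 has the widest interval.

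Values of other gene lists in the same libraries are given beside these. Summed plasma cell markers were higher in pup 3 (3 of 6 detected, 18.4 against 32.9 TPM), led by Igkc at 9.68 and 19.2 TPM, while the defining markers Jchain (0.17 and 0.06 TPM) and Tnfrsf17 (0 and 0.10 TPM) were near 0. Milk protein genes, a list chosen after the data were seen, summed to 1.17 TPM in pup 1 and 128 TPM in pup 3, and 7 of the 7 tested differed by 2-fold (Csn2 had 10 and 1102 counts). Immediate early genes, also chosen afterwards, summed to 397 and 475 TPM, with 5 of 8 intervals below 0 and 2 above, and Junb at 59.6 and 109 TPM. Cardiac muscle markers, all 4 detected, summed to 561 and 644 TPM, with a median log2 ratio of -0.27. Of their 4 intervals 3 were below 0 and 1, that of Actc1 (log2 ratio 0.27), was above. Of the 4 mucous gland markers, Muc5b and Muc5ac differed by 1.5-fold, at -0.79 and -0.74, both higher in pup 3 and with means under TPM 1. Agr2, the most abundant of the 4, was at -0.19 and Spdef at 0.42, both with intervals that held 0. Alveolar type 2 markers had a median of 0.11, with 6 of 8 intervals above 0 and 1, that of Lamp3 (log2 ratio -0.30), below. Of the 4 liver markers 2 were tested, Apoa1 at 0.83 and Alb at 0.65, both over 1.5-fold higher in pup 1. Of the 5 pancreatic acinar markers 3 were tested, with 1 interval above 0 and 1 below. Cela1 was 2-fold or more higher in pup 1 (log2 ratio 1.36). Medians were -0.03 for alveolar type 1 markers, -0.11 for club, 0.05 for endothelial, 0.09 for fibroblast and 0.11 for macrophage markers. Over all genes tested, 21.6% of intervals were below 0 and 24.6% above. The part of these in the chaperone and disulfide values was not tested.

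Genes that hold the stress element can be set beside those that do not. The 9 tested genes with an element had a median log2 ratio of -0.21 under TMM, from -0.42 (Hspa5) to 0.03 (Syvn1), and 8 of the 9 were below 0. The intervals of Dnajc3 and Syvn1 held 0. By spike-ins Canx (0.10), Dnajc3 (0.11) and Syvn1 (0.18) were above 0, where the median over all genes tested was 0.15. Among the 18 tested genes whose promoter was found without an element the median was 0.01, from -0.67 (Sdf2l1) to 0.36 (Herpud1), and 8 were below 0. A further 9 tested genes outside the 32 hold the element, and their median was -0.06, with 6 below 0. The 1 of these that differed by 2-fold, Xlr3b, was higher in pup 1 (log2 ratio 1.25, interval 0.87 to 1.66), and is named because of that value. By comparison, all tested genes without it had a median of 0.01. Sdf2l1, the gene with the largest ratio, is among those with no match in this window. Among the 32 genes, those with an element were mostly chaperone or disulfide genes. Every sensor or transcription factor with a promoter found was among those without it. The contrast is therefore not separate from that of the roles. No test was made of these differences, which rest on 1 library a pup.

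The rest of the pathway was read from 7 lists holding 128 genes, of which 124 were tested and 1 differed by 2-fold. In what follows, intervals above 0 (higher in pup 1) and below 0 (higher in pup 3) are to be read against 24.6% and 21.6% of all genes tested, or 44.5% and 28.0% of genes with at least 5000 counts. Of 16 translocon and signal peptidase genes, which feed chains into the compartment, 10 had an interval above 0 and 1 below it, with a median log2 ratio of 0.13 (0.023 on the log2(TPM + 1) scale). The highest were Spcs1, a signal peptidase subunit, at 424 ± 14.97 TPM (SD, n = 2) and Ssr2, a translocon-associated protein, at 304 ± 47.7 TPM with a log2 ratio of 0.40. The 12 genes of glycan transfer and trimming had a median of -0.00014 (4 above, 3 below), led by the oligosaccharyltransferase subunits Dad1 at 391 ± 27.3 TPM and Ostc at 211 ± 4.86 TPM.

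Of the 28 other folding genes, 26 were tested, with a median of 0.06 (10 above, 6 below). The prolyl isomerase Ppic, at 553 ± 43.1 TPM, and the collagen chaperone Serpinh1, at 503 ± 57.4 TPM, lay near the levels of Ppib and P4hb. Pdia2, a pancreatic isomerase, and Clgn, a testis relative of Canx, were under TPM 1. The 20 other degradation genes had a median of 0.05 (9 above, 0 below) and were led by Selenok at 299.7 ± 10.0 TPM and Vcp, the ATPase that pulls chains from the membrane, at 222 ± 13.1 TPM.

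Downstream of Perk and Atf4, the 25 listed genes had a median of 0.06 (8 above, 5 below), led by the stress-induced Nupr1 at 254 ± 25.5 TPM and the transcription factor Cebpb at 102 ± 9.44 TPM. The single 2-fold difference of the 7 lists was Slc7a11, the cystine transporter, with 28.2 counts in pup 1 and 130 in pup 3 (log2 ratio -2.34, interval -3.01 to -1.77), which is under TPM 1 in both pups, as was the secreted Stc2. The 13 tested of 15 other transducers had a median of 0.05 (6 above, 2 below), with Tmbim6 at 559 ± 13.3 TPM and Bloc1s1, an mRNA that Ire1 can cut, at 207 ± 8.57 TPM. Ern2, the epithelial relative of Ern1, and Creb3l3, a liver factor, were under TPM 1. On the log2(TPM + 1) scale the medians of the other folding, other degradation, Perk and transducer lists were -0.015, -0.029, -0.045 and -0.078. The median over all genes tested was -0.062 on that scale, and the lists lay 0.046, 0.033, 0.017 and -0.016 from it.

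Heat shock genes of the cytosol and mitochondria had a median log2 ratio of -0.14 over 12 genes, with 8 intervals below 0 and 2 above, where 21.6% and 24.6% of all genes tested did. By the spike-ins that median was 0.0071, where that of all genes tested was 0.15. Hspa8, the constitutive Hsp70 of the cytosol, was at 825 TPM in pup 1 and 1247 TPM in pup 3 (log2 ratio -0.48), and Hsp90ab1 at 522 and 601 TPM. Hspa1b was under TPM 1 in both. At the 1.5-fold limit 3 genes of the 7 lists differed: Slc7a11, Hsph1 at -0.71 and the amino acid transporter Slc7a5 at 0.88, of which Hsph1 and Slc7a5 are named because of these values.

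**Figure D4:**
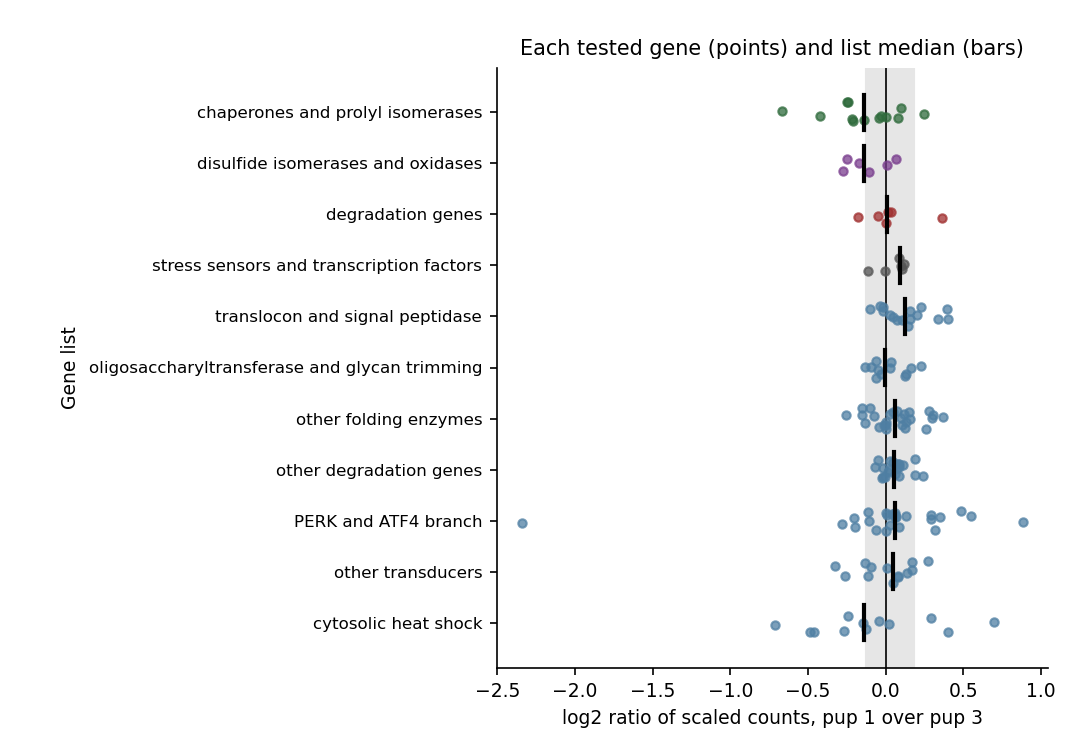
Log2 ratio of TMM-scaled counts, pup 1 over pup 3, for each tested gene (points, spread vertically for legibility) of the 4 role lists and the 7 other pathway lists, with each list's median as a black bar; the grey band is the central 68% of the genes with at least 5000 counts. The medians of the chaperones (-0.14), disulfide genes (-0.14) and cytosolic heat shock genes (-0.14) lie left of 0 under TMM. By spike-ins, which rest on 317 and 316 counts, they were just above 0 (0.0037, 0.0063 and 0.0071). The median of the translocon genes (0.13) lies to the right under TMM, and Slc7a11 is the point at -2.34.

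The deposited transcript tables divide each gene's abundance among its transcript models, in percent. Of the 32 genes 12 have a single model, and in all 20 others the same protein-coding model led in both pups, with a median share of 76.9%. The leading share was over 50% in 18 of the 20, the exceptions being Sel1l at 34.4% ± 1.02 and Derl2 at 33.4% ± 6.09 (SD, n = 2). The models described next were chosen after their values were seen.

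In 8 genes, models annotated as retained introns, decay targets or processed transcripts held 10% or more of the abundance, with SDs between the pups of 0.36 to 2.21 percentage points. Hspa5-204, a decay-target model of 477 bases, held 19.3% and 19.1% of the abundance of Hspa5 but only 3.47% of its counts, since a short model weighs more per read. Pdia3-203, also a decay target, held 31.1% ± 1.26 of the abundance on 9.56% of the counts, and the retained-intron model Manf-205 held 36.7% ± 1.74 on 21.1%. For Sel1l such models held 61.1% ± 0.96 of the abundance on 19.1% of the counts, so its TPM rests largely on short models.

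Canx and Ern1 divided their abundance differently in the pups. Canx-201 held 52.5% in pup 1 and 68.9% in pup 3, and Canx-205 held 46.6% and 30.3% on 9278 and 5708 counts, although the gene's total had a log2 ratio of only -0.04. Ern1-201 held 58.8% and 48.8%, on 90.6% of the counts. Splits between models of 1 gene are estimates from reads that the models share.

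**Figure D5:**
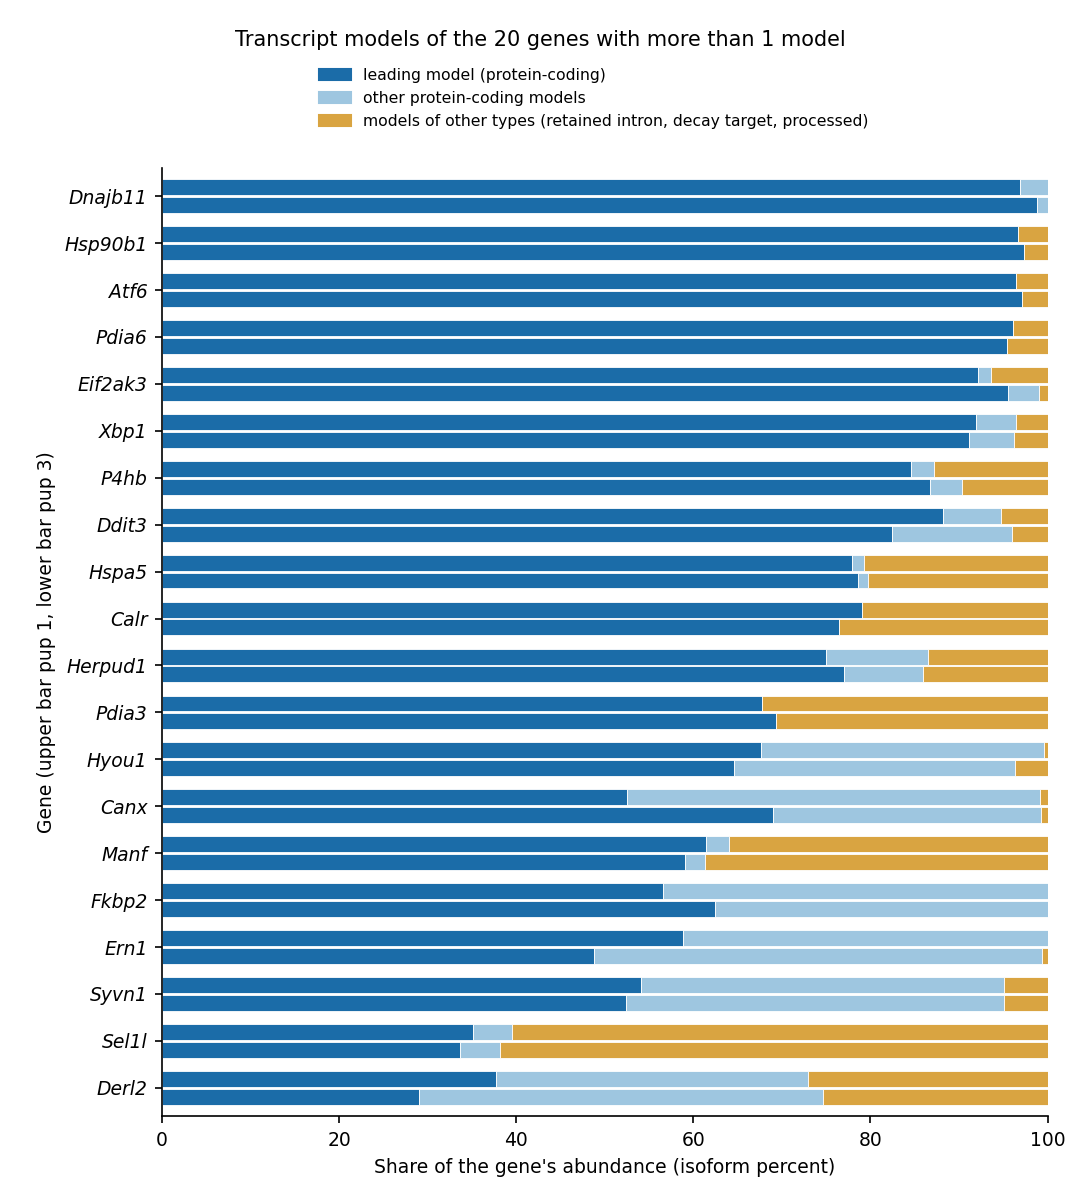
Share of abundance (isoform percent) held by the leading model, by other protein-coding models and by models of other types, for the 20 genes with more than 1 model; the upper bar of each pair is pup 1 and the lower bar pup 3. The dark blue leading share is over 50% in all but Sel1l and Derl2 by mean, and the bars of Canx differ most visibly, at 52.5% and 68.9%.

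Some values rest on loci shared with other genes. By annotation 7 of the 32 genes overlap another protein-coding gene, including Pdia6 with Atp6v1c2, Ddit3 with Mars, Syvn1 with Mrpl49, Ppib with Snx22 and Manf with Rbm15b and Dcaf1. Whether counting used strand is not given in the sources used here, so reads of such pairs may not be separated. Mars had 2801 and 2443 counts against 623 and 517 for Ddit3, so that Ddit3 is the smaller partner of its pair. The posterior SD of the count, which reflects reads shared with other features, was at most 0.167% of the count in any of the 32 genes.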

How the data were processed

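Total RNA libraries from the lungs of 2 newborn pups were analysed from gene and transcript tables. The authors deposited expected counts (estimated counts), TPM, FPKM and isoform percent, per the file headers, along with posterior means and credibility bounds. RNA longer than 200 nt and 10 ng per library were used, per the labels. The assembly is mm10 and the annotation M4, per the deposited text files. Aligner, counting program and strandedness: not given in the sources used here.

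Names and coordinates came from GENCODE M21 (42462 of 43346 identifiers matched) and promoters from RefSeq (GRCm38.p6), where Ero1l and Ero1lb were matched by synonym. Protein sequences were not analysed here. Rounded expected counts received TMM factors from edgeR 4.0.16 in R 4.3.3 (effective size of pup 1 over pup 3, 1.11), and log2 ratios a prior count of 0.5. A gene differed at 2-fold or more, at least 50 counts and a 95% interval leaving out 1. No molecular identifiers were counted, so reads are not independent molecules, and intervals and floors cover counting error only. Scripts were tested on simulated data.

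The 32 genes and all lists were chosen with earlier results of these data known. All 32 are named. From each pathway list the 2 highest by mean TPM, those differing 2-fold and up to 3 under TPM 1 are named. Alternatives covered scaling (DESeq2 1.42.0 size factors, spike-ins, total counts), log2(TPM + 1), posterior means, the prior, thresholds and single pups.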

Additional observations from a re-analysis of the deposited data

How the results depend on the processing

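Read in a single pup, the number of the 32 genes at TPM 1 or more was 31 in either pup. Summed FPKM in place of TPM was lower, at 1634 for chaperones, 899 for disulfide genes, 304 for degradation genes and 261 for sensors. In single pups the TPM sums ran from 2017 to 2325, 1143 to 1246, 397 to 410.1 and 333 to 361, and the median leading isoform share from 76.4% to 76.7%. The count of the 32 genes differing was 0, or 1 at a 1.5-fold limit. Among other pathway genes it was 1, but 2 by spike-ins, 0 by log2(TPM + 1) and 3 at 1.5-fold. The median log2 ratio, -0.03, was 0.11 by spike-ins and -0.16 by log2(TPM + 1), where all genes tested had medians of 0.15 and -0.062. By spike-ins the log2 ratio turned positive for Canx (0.10), Dnajb9 (0.0037), Pdia3 (0.039) and Xbp1 (0.030), and for the medians of the chaperones (0.0037) and disulfide genes (0.0063), since that scaling raises every ratio by the same amount. The degradation median was -0.030 by total counts, where all genes tested had -0.035, and -0.13 by log2(TPM + 1). The sensor median was -0.017 by log2(TPM + 1), which is 0.044 above that of all genes tested. List medians under other settings were added after seeing the data. Spike-in scaling rests on 317 and 316 counts, and the counting error of that scaling is left out of the values by spike-ins. DESeq2 size factors, posterior mean counts and a prior count of 5 left all 32 log2 ratios within their intervals. No paired analysis was possible because there is 1 group, and leaving out a pup leaves no ratio. Depth limits Derl3, with 26 and 17 counts.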
